A study of Mus musculus with 8 samples.

Results

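Genes for the proteins of the cytosolic ribosome were followed through 3 stages of mouse skin development. Members were taken from the probe annotation as every gene whose single symbol begins with Rpl or Rps and a number, together with the stalk genes and Rpsa, leaving out the Rps6k kinases, Rpl3l and pseudogenes. The rule gave 49 of the 18193 genes tested, read by 105 of the 34945 probesets with a single symbol. Of these, 20 encode large subunit proteins, 21 small subunit proteins and 2 acidic stalk proteins, 5 are paralogues, and Rps19bp1 encodes a protein that binds Rps19 and is not itself part of the ribosome. A further 110 probesets carry several symbols of which at least 1 meets the rule. They were not used, so 31 symbols read only by such probesets, among them Rplp1, Rpl3, Rpl5 and Rps12, have no value here.

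The samples were dorsal skin from wild-type mouse embryos, hybridised to Affymetrix mouse expression arrays. Embryonic day 14.5 (E14.5) has 2 arrays, while day 16.5 (E16.5) and day 18.5 (E18.5) have 3 each. No strain, treatment or allele beyond wild type is given in the labels, and the stated aim of the series was to learn how transcription is regulated as the epidermis matures. Whether arrays of a stage came from separate animals is not stated, so each p-value reflects only the spread from array to array, which may be technical, and the number of arrays limits the precision. All 8 skin markers examined (Krt5, Krt14, Krt1, Krt10, Trp63, Col1a1, Col1a2 and Col3a1) lay above background on all 8 arrays.

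A ribosome is built from a small subunit, which reads the messenger RNA, and a large subunit, which joins amino acids, and nearly every protein of each is present as a single copy. The messages are among the most abundant in a growing cell. They begin with a C followed by a run of pyrimidines, the terminal oligopyrimidine tract, through which the mTORC1 kinase pathway and Larp1 adjust their translation and stability. Mutations of mouse Rps19 and Rps20 are known to darken the skin through stabilised p53 in keratinocytes. The array measures the amount of each message relative to the rest of the RNA. In whole skin, fewer cells of a type and less RNA per cell cannot be told apart.

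The sequence feature that the genes are known to share was looked for first. RefSeq promoter windows (assembly GRCm38.p6, 250 bases before to 50 after each start) were found for 43 of the 49 genes and gave 50 windows. A run of 6 or more C or T letters on the gene's strand, touching the 10 bases on either side of the start, stood in 54.0% of them and in 29.2% of all 32851 windows. The 30 bases around the start are shown for genes that the results below turn on, with that run in capitals. Rpl35, Rps6 and Rplp2 rose late and hold a run. By this search Rpl11, which rose late, and Rplp0, which rose in both intervals, had none. Rpl27a fell with a run of 20 letters, the end of which lies beyond the printed bases. The search relies on the annotated start and asks for no C there. It therefore does not show whether a message begins with the tract.
Rpl35 (chr2:39005117-39005146, minus strand): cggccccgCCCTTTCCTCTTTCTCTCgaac
Rps6 (chr4:86857353-86857382, minus strand): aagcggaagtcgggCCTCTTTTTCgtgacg
Rplp2 (chr7:141447636-141447665, plus strand): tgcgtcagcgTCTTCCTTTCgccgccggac
Rpl27a (chr7:109519180-109519209, plus strand): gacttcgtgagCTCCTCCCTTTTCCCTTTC
Rpl11 (chr4:136053379-136053408, minus strand): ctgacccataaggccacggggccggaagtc
Rplp0 (chr5:115559452-115559481, plus strand): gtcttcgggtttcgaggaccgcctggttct
In the Rpl11 window the letters ccggaag are those of a site for ETS family factors. On both strands, CCGGAAG stood in 42.0% of the member windows against 8.86% of all windows, AAGATGG (part of the YY1 site) in 16.0% against 6.34%, GGGCGG (the core of the Sp1 site) in 56.0% against 35.7%, and TATAAA in 12.0% against 13.6%. The motifs may overlap one another in a window. From E16.5 to E18.5 the median log2 change was 0.40 for the 27 genes with a run at the start and 0.39 for the 16 without.

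Between E16.5 and E18.5 most ribosomal protein genes rose in the values as deposited, though only 5 did so after quantile normalization. On the log2(signal + 16) scale, 29 of the 49 genes rose (limma, adjusted p under 0.05), 1 fell and 19 did not pass, where 7.52% of all genes rose and 5.62% fell. The median change was 0.41, with quartiles of 0.27 and 0.54, against 0.12 over all genes, and 46 of 49 changes were above 0. In 36 genes every E18.5 array was above every E16.5 array, and in 1 every one was below, against 24.3% and 14.5% of all genes. Both the 36 and the 46 include Rps16, whose signal was not above background on any array. All 29 that rose are among the 43 core proteins. Without E16.5 replicate 1, 2 or 3 the number that rose was 16, 18 or 16, with medians of 0.39, 0.43 and 0.40. Of all genes 3.34%, 3.25% and 2.5% then rose. Without 1 of the other 5 arrays the number of members that rose was 26 to 30.

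**Figure D1:**
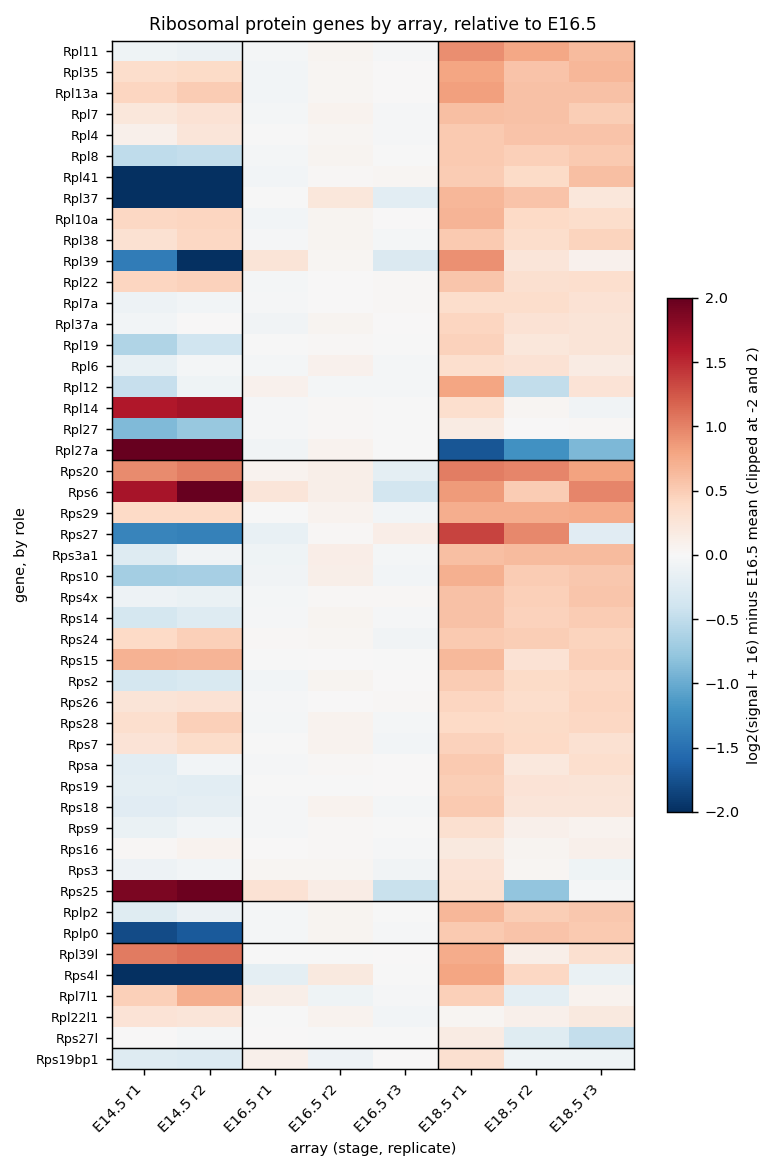
Each row is a ribosomal protein gene, grouped by role in the order large subunit, small subunit, stalk, paralogues and Rps19bp1, and each column is an array. Colour gives log2(signal + 16) minus the gene's mean over the 3 E16.5 arrays, clipped at −2 and 2. The E18.5 columns are red in most rows and blue for Rpl27a, while the E14.5 columns hold both strong blue (Rpl37, Rpl41, Rplp0) and strong red (Rpl27a, Rps25, Rps6).

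Of the 20 large subunit genes, 12 rose, 1 fell and 7 did not pass, with a median change of 0.43. Rpl11, which also binds Mdm2 and so links ribosome assembly to p53, gave signals of 10741, 11490 and 10797 at E16.5 and 21016, 18853 and 17026 at E18.5. It rose 1.72-fold (log2 0.78 ± 0.10 SE, n = 3 each, adjusted p = 0.00173). Rpl35, which lies by the exit tunnel for the new protein, went from 17699 to 18816 at E16.5 to between 27142 and 31560 at E18.5 (log2 0.67 ± 0.09, adjusted p = 0.00221). Rpl13a, also known as a translational silencer in inflammation, went from 18886 to 20241 to between 29351 and 34558 (log2 0.66 ± 0.10, adjusted p = 0.00304). In all 3 genes the arrays of the stages did not overlap.

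Rpl27a was the single member that fell. Its signals were 863, 950 and 900 at E16.5 and 265, 379 and 477 at E18.5, all above background (log2 −1.28 ± 0.18 SE, adjusted p = 0.00273). The other Rpl27a probeset lay above background on 1 of 8 arrays, and with the mean of both probesets the change was −0.43 and was not called (adjusted p = 0.17). The 7 large subunit genes that did not pass were Rpl6, Rpl12, Rpl14, Rpl19, Rpl27, Rpl37 and Rpl39, with changes of 0.07 to 0.49. The highest of these was that of Rpl37, whose signals of 1873, 2188 and 1615 lay just below 2989, 2787 and 2200 without overlap (SE 0.17, adjusted p = 0.089). The lowest, 0.07, was that of the brightest Rpl27 probeset, while its other 2 probesets were called higher in limma over all probesets. They rose by 1.19 and 0.96 (adjusted p = 0.000836 and 0.00445).

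In the small subunit 15 of 21 genes rose and 0 fell (limma, 0 lower also at an unadjusted p under 0.05), with a median of 0.44, and 20 of the 21 changes were above 0. Rps20, mutated in a dark skin mouse, gave 14955, 15361 and 12400 at E16.5 and 28687, 27858 and 24696 at E18.5. This 1.91-fold rise was the largest of any member by the probeset that stood for its gene (log2 0.93 ± 0.11 SE, n = 3 each, adjusted p = 0.00122). Rps29, a zinc-binding protein of the subunit head, lay at 21290 to 23171 and then at 36718 to 36950, a narrow range at the later stage (log2 0.73 ± 0.08, adjusted p = 0.000997). Rps6, the substrate of the S6 kinases, was dimmer and more variable, with 1156, 1058 and 751 at E16.5 and 1764, 1390 and 1937 at E18.5 (log2 0.78 ± 0.19, adjusted p = 0.025). The stages did not overlap in any of these genes, but leaving out single arrays ended the Rps6 call in 4 cases, with an adjusted p of 0.061 and 0.10 (E16.5 replicates 2 and 3) and of 0.068 and 0.061 (E18.5 replicates 1 and 3).

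The calls of Rps15 (0.47 ± 0.10), Rpl10a (0.48 ± 0.11) and Rpl22 (0.41 ± 0.09) were each lost without any 1 of the E16.5 arrays. The adjusted p was then 0.064 to 0.074 for Rps15, 0.056 to 0.082 for Rpl10a and 0.075 to 0.093 for Rpl22, while the changes stayed between 0.38 and 0.51. Rps24, mutated in some patients with Diamond-Blackfan anaemia, rose by 0.49 ± 0.09 (adjusted p = 0.0067), from 17457 to 18792 to between 25008 and 26211. The 6 small subunit genes that did not pass were Rps3, Rps9, Rps16, Rps18, Rps25 and Rps27. The only Rps16 probeset with a single symbol was not well above background on any array, with signals of 0.58 to 3.29, so it measures nothing of that gene.

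The stalk proteins, which reach out from the large subunit to recruit the translation factors, both rose. Rplp0, the base of the stalk, gave 20119, 21389 and 20270 at E16.5 and 29547, 30433 and 29756 at E18.5 (log2 0.54 ± 0.09 SE, adjusted p = 0.00428). Rplp2 gave 21838, 23320 and 22326 and then 35705, 31519 and 32850 (log2 0.57 ± 0.09, adjusted p = 0.00465). Rpsa, a small subunit protein that is also known as a laminin receptor, went from 20299 to 21107 to between 24056 and 29683 without overlap (log2 0.36 ± 0.10, adjusted p = 0.0479). Its call lay at the threshold. It was kept without E18.5 replicate 2 and lost without any other single array (adjusted p = 0.055 to 0.16), and in the fit over all probesets its adjusted p was 0.054.

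The size of the shared rise depended on how the arrays were scaled to one another. After quantile normalization, which gives every array the same distribution of signals, 5 of the 49 members rose, where 5.66% of all genes did. The median was then 0.11 against 0.03 for all genes. Those 5 were Rps20, Rps6, Rpl11, Rps29 and Rpl35. After cyclic loess 14 rose, against 5.75% of all genes (median 0.23 against 0.03). After centring each array on its median probeset 11 rose, against 4.00% of all genes (0.235 against −0.048). Centring on the 1815 brightest genes outside the set, a list that covers 1 in 10 genes, left 31, against 7.87% (0.42 against 0.13). The median of the gene changes stayed above 0 under these settings, and no member that rose in the values as deposited was called lower under any of them.

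**Figure D2:**
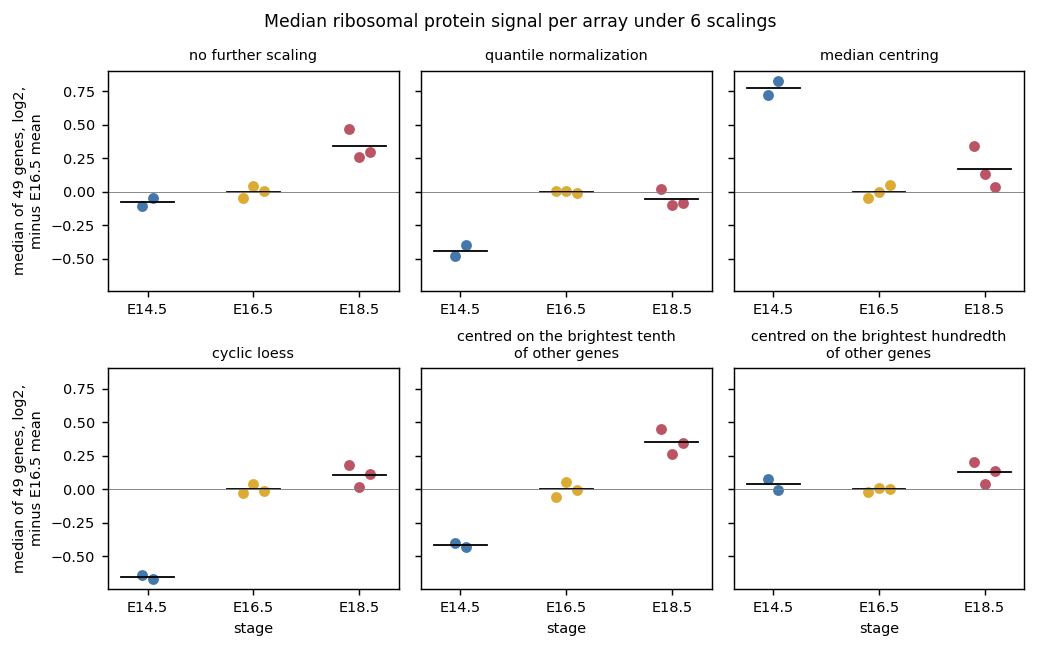
Each panel gives 1 scaling of the arrays and each point 1 array, with the median of log2(signal + 16) over the 49 genes on the vertical axis, relative to the E16.5 mean of that panel. Lines are stage means. E18.5 lies above E16.5 without overlap when no scaling is added and in both panels centred on bright genes, and overlaps it in the other panels, with its mean just below that of E16.5 after quantile normalization. E14.5 lies above, near or below E16.5 depending on the scaling.

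Most members were among the brightest genes on the array, where brightness reflects the probes as well as the message. The median member ranked at percentile 99.4 to 99.8 of the genes of each array, and 35 of the 49 had a mean signal of 9636 or more, together with 182 other genes. Among those 182, the median change from E16.5 to E18.5 was 0.23, with 31.3% called higher and 2.75% lower. The 35 members there had a median of 0.47, and 28 of them rose. When each array was centred on these 182 genes, a setting chosen after the data were seen, 15 members rose, against 3.96% of all genes. The median was then 0.19 against −0.09 for all genes. Genes in the middle of the brightness range had medians near 0, from −0.09 to 0.01 between the 50th and the 90th percentile. The medians of dim genes were above 0 too, at 0.28, 0.48, 0.47 and 0.30 in the 4 bins up to the 40th percentile.

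**Figure D3:**
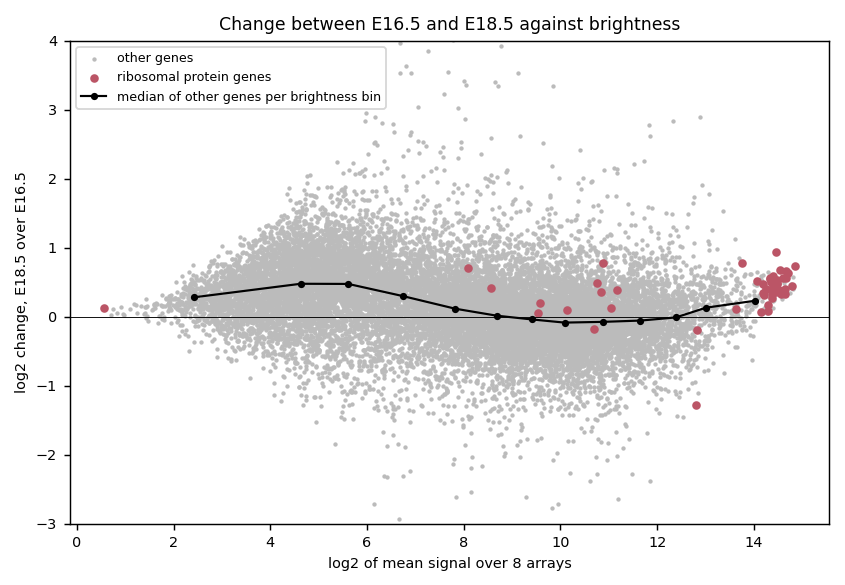
The horizontal axis is log2 of the mean signal over 8 arrays and the vertical axis the log2 change from E16.5 to E18.5, drawn from −3 to 4. Grey points are other genes, red points the ribosomal protein genes, and the black line joins the median of the other genes in 13 bins of brightness. The line is above 0 for dim genes, falls slightly below 0 above the middle and turns upward in the brightest bins, and most red points there lie above it.

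Other values moved with the same comparison. The highest gene signal on an array lay between 27950 and 30874 at E16.5 and between 38570 and 39825 at E18.5. Cre, a control transcript added before hybridisation, read 20570 to 22560 and then 30670 to 31160. Of the other such controls, bioC read 1434 to 1496 and then 1976 to 2063, and bioD 6525 to 6768 and then 8266 to 9121. The dimmest, bioB, read 496 to 593 and then 561 to 602. The 3′ over 5′ ratio of beta-actin was 1.11 to 1.14 and then 1.35 to 1.37, and that of Gapdh was 0.84 to 0.87 and then 0.69 to 0.81. Of the 8 skin markers 4 rose and 0 fell in limma (0 lower also at an unadjusted p under 0.05), with a median change of 0.37 and sums of 149753 to 167345 and then 207080 to 219321. All 7 adipocyte markers rose, with a summed signal between 9438 and 13287 at E16.5, when 4 or 5 lay above background, and 43725 to 57415 at E18.5, when all did. Of 7 melanocyte markers 5 rose (3677 to 5115, then 7912 to 13303). Of 8 skeletal muscle markers 1 rose and 1 fell (71598 to 78486, then 89647 to 137719), and of 8 macrophage markers 3 rose and 1 fell (7557 to 8535, then 9276 to 12436). Of 6 red cell markers 4 fell (4965 to 9675, then 1693 to 2633). The part of these differences in the ribosomal protein result was not tested. Cre, bioC and bioD read higher on every E18.5 array than on every E16.5 array. Stage and the signal level of the arrays therefore cannot be told apart in this comparison.

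No gene had probesets called in opposite directions in this interval. Of the 105 probesets 57 rose and 1 fell, where 6.27% and 4.44% of all probesets did so. Of the 24 genes with 2 or more probesets, 16 had 2 or more called and all one way, and in 6 every probeset rose. All 4 Rpl13a probesets rose, by 0.42 to 0.80, and 5 of the 6 of Rpl35 rose, by 0.54 to 0.75. Rps20 was split by brightness: the 2 bright probesets rose by 0.93 and 0.70, while the 2 dim ones, with signals of 111 to 225 at E18.5, changed by −0.12 and 0.22 (adjusted p = 0.79 and 0.62). With the mean of its 4 probesets Rps20 was not called (0.43, adjusted p = 0.057).

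Probesets whose identifiers end in _x_at or _s_at hold probes that match other transcripts, and 43 of the 105 do. For genes with many processed pseudogenes this leaves the source of the signal uncertain. The median change was 0.50 for the 40 _x_at probesets, against 0.34 over all _x_at probesets, and 0.41 for the 28 that end in _a_at, which read alternative transcripts of 1 gene, against 0.08. For the 34 with a plain _at it was 0.38, against 0.12. Without _s_at and _x_at probesets 44 genes were left, of which 21 rose and 1 fell. Rps20 and Rps24 were not called without them (0.22, adjusted p = 0.61, and 0.72, adjusted p = 0.11).

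**Figure D4:**
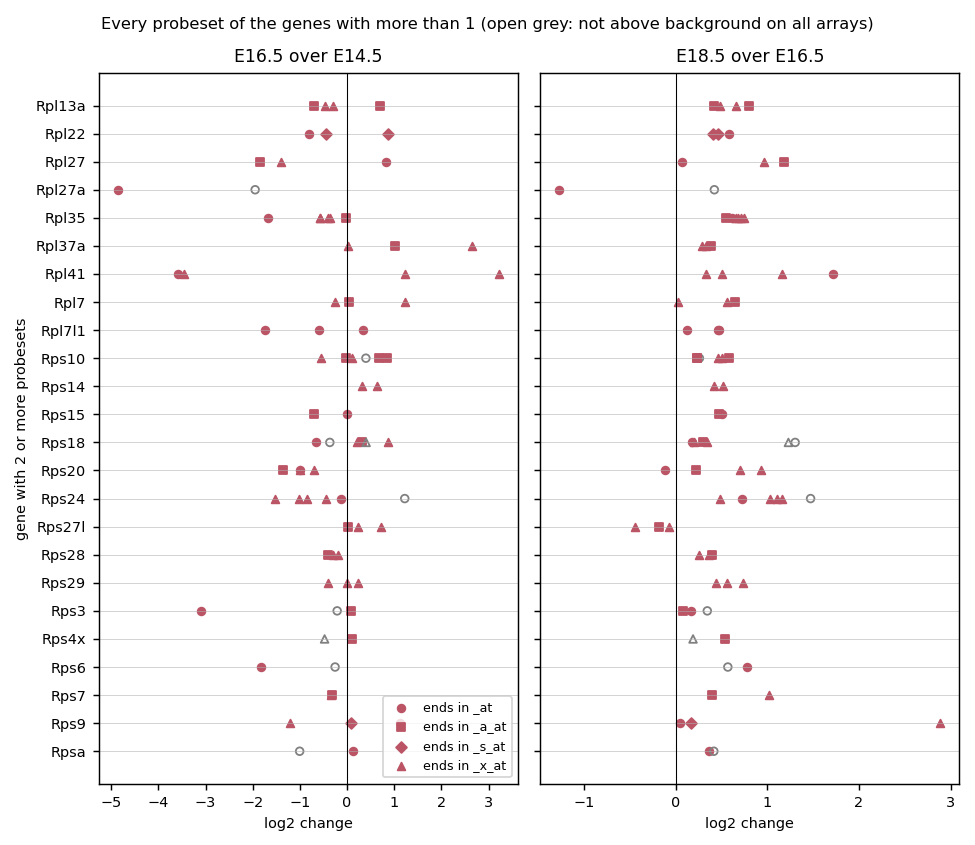
Each row is a gene with 2 or more probesets and each point 1 probeset, with its log2 change on the horizontal axis for E16.5 over E14.5 on the left and E18.5 over E16.5 on the right. Marker shape gives the ending of the identifier, and open grey points were not above background on all arrays. On the right most points lie above 0 and close together within a gene, with a median gap of 0.35, while on the left many genes span 0, with a median gap of 1.50.

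Between E14.5 and E16.5 the genes did not move together. Of the 49, 12 rose, 20 fell and 17 did not pass, with a median of 0.08 against 0.30 over all genes, of which 58.6% were called, 37.3% higher and 21.3% lower. Without E14.5 replicate 2 the number that fell was 11. The E14.5 arrays differed from the rest in their controls. Of the added controls, bioB read 5612 and 5066 on them against 496 to 602 on the other arrays. Cre read 59930 and 59430 against 20570 to 31160. The 3′ over 5′ ratio was 6.49 and 6.91 for beta-actin and 2.96 and 3.03 for Gapdh there, against 1.11 to 1.37 and 0.69 to 0.87 on the other arrays. Stage and array preparation therefore cannot be told apart in either comparison with E14.5.

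The direction of the members as a whole differed with the scaling in this interval. Quantile normalization gave 25 higher and 7 lower (median 0.33), cyclic loess 30 and 7 (0.45), and centring on the 1815 brightest other genes 25 and 7 (0.42). Of all genes 27.6%, 24.5% and 45.9% were then called higher, in the same order. With the 1815 genes the share of members called higher was thus near that of all genes. Centring on the median probeset gave 5 and 39 (−0.77), and centring on the 182 brightest other genes 10 and 21 (−0.03). Of all genes 20.0% and 34.6% were then called higher. The median over all genes moved too, from −0.55 with median centring to 0.64 with the 1815 bright genes, against 0.30 with no further scaling.

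The genes that rose included both dim and bright ones at E14.5. Rpl37, a small zinc-binding protein of the large subunit, gave 84.4 and 113 at E14.5 and 1615 to 2188 at E16.5, a 16.6-fold difference (log2 4.06 ± 0.19 SE, n = 2 and 3, adjusted p = 8.8e-08). Rplp0 gave 5923 and 6427 at E14.5 and 20119 to 21389 at E16.5 (3.33-fold, log2 1.74 ± 0.10, adjusted p = 2.03e-07). Rps27, a zinc-finger protein of the small subunit, gave 85.4 and 82.5 and then 212 to 259 (log2 1.34 ± 0.40, adjusted p = 0.014). The stages did not overlap in these genes, but the Rps27 call was lost without either E14.5 array (adjusted p = 0.0545 and 0.060) and after quantile normalization, median centring and cyclic loess (0.48, 0.33 and 0.66).

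Rpl41, the shortest ribosomal protein, shows how far probesets could part. Its brightest probeset gave 2259 and 2474 at E14.5 and 21361 to 22909 at E16.5 (log2 3.23 ± 0.11), and a second rose by 1.23. The other two fell by 3.59 and 3.46, the first of them from 1554 and 1843 to between 121 and 133. From E16.5 to E18.5 all 4 moved upward, by 0.33 to 1.72, and 3 of them were called. Rpl27, taken as a further example after its values were seen, rose by 0.82 with its brightest probeset and fell by 1.84 and 1.41 with the other two. In all, 7 of the 24 genes with 2 or more probesets had some called higher and some lower in this interval (Rpl7, Rpl13a, Rpl22, Rpl27, Rpl41, Rps10 and Rps24). Over all probesets of the array 38.9% were called higher and 18.7% lower.

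Among the falls from E14.5, that of Rpl27a stood out. Its signals of 26082 and 27223 at E14.5 gave way to 863 to 950 at E16.5, a 29.0-fold difference (log2 −4.86 ± 0.20 SE, adjusted p = 5.84e-08), before the further fall by E18.5. Rps25, a small subunit protein used by viral internal ribosome entry sites, gave 3664 and 3873 followed by 719 to 1207 (log2 −1.92 ± 0.30, adjusted p = 0.000278). Rpl14, a large subunit protein, gave 2195 and 2292 and then 698 to 727 (log2 −1.64 ± 0.15, adjusted p = 4.92e-06). None of these 3 genes was called higher from E16.5 to E18.5, and the 3 changes kept their direction and their call under every scaling tried.

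Several genes fell in the first interval and rose in the second. The intervals share the E16.5 arrays, so their changes are only set side by side as values. Rps6 changed by −1.83 ± 0.21 and then 0.78 ± 0.19, and Rps20 by −0.99 ± 0.12 and then 0.93 ± 0.11. For Rps15 the changes were −0.69 ± 0.12 and 0.47 ± 0.10, for Rpl13a −0.47 ± 0.11 and 0.66 ± 0.10, for Rps24 −0.44 ± 0.10 and 0.49 ± 0.09, and for Rpl10a −0.42 ± 0.12 and 0.48 ± 0.11. The first-interval changes of Rpl13a, Rps24 and Rpl10a were 0.16, 0.16 and 0.17 after cyclic loess and were then not called, and that of Rps15 was −0.16 and not called (adjusted p = 0.25). Those of Rpl13a, Rps24 and Rpl10a were also not called after quantile normalization (adjusted p = 0.13, 0.13 and 0.20) or with centring on the 1815 brightest other genes (0.28, 0.35 and 0.55). That of Rpl10a was also not called without either E14.5 array (adjusted p = 0.052 and 0.056). The other Rps15 probeset, with signals of 13549 to 22236, changed by −0.0024 in the first interval (adjusted p = 0.99 in limma). In the second interval it rose by 0.50.

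Over the whole span, E18.5 against E14.5, 26 genes were higher, 6 lower and 17 not called, against 42.1% and 20.0% of all genes (62.0% together), and the median of 0.33 lay below the 0.52 of all genes. The share of members called higher was thus somewhat above that of all genes and the share called lower somewhat below, a difference that was not tested. The 6 lower genes were Rpl27a, Rps25, Rpl14, Rps6, Rpl39l and Rpl7l1. Median centring gave 5 higher and 33 lower (median −0.69), and centring on the 182 brightest other genes gave 16 and 16. Of all genes 18.3% and 33.6% were then called higher. Cyclic loess gave 36 and 6 (0.66), and centring on the 1815 brightest other genes 39 and 4 (0.69). Of all genes 25.6% and 52.7% were then called higher.

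The paralogues are encoded by separate genes, and some can take the place of a core protein. From E16.5 to E18.5, 0 of 5 passed the limma test and 1 had an unadjusted p under 0.05, with 4 of 5 changes above 0 and a median of 0.12. Whether they differ from the core genes was not tested. Rpl22l1, known to act against Rpl22 in blood cell development, lay between 11327 and 12347 at E16.5 and between 12148 and 13470 at E18.5, with overlap (log2 0.11 ± 0.09 SE, adjusted p = 0.43), while Rpl22 rose as given above. Rpl7l1 (0.12 ± 0.17, adjusted p = 0.66) lay beside Rpl7, which went from 16243 to 17562 to between 23585 and 25341 (0.56 ± 0.09, adjusted p = 0.00389). Both small changes turned below 0 under some scalings, to −0.12 for Rpl22l1 after quantile normalization and to −0.05 for Rpl7l1 after median centring.

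Rps27l, a target of p53, read 7485 to 7611 at E16.5 and 8452, 6363 and 5392 at E18.5, so the later arrays lay on both sides of the earlier ones (−0.19 ± 0.15 SE, adjusted p = 0.43). Without E18.5 replicate 1 it was called lower (−0.36, adjusted p = 0.044). Its partner Rps27 went from 212 to 259 to 632, 478 and 199 (0.70 ± 0.35, adjusted p = 0.22) and was called higher without E18.5 replicate 3 (1.16, adjusted p = 0.011). Each of these results therefore turned on 1 array.

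Rpl39l, best known from male germ cells, went from 1625 to 1653 at E16.5 to 2748, 1781 and 2044 at E18.5 (0.39 ± 0.15, adjusted p = 0.11), and was called without E18.5 replicate 2 (0.53, adjusted p = 0.044). It had fallen from 3373 and 3523 at E14.5 (log2 −1.07 ± 0.17, adjusted p = 0.000254). Rpl39, its partner in the exit tunnel, had signals of 141 and 26.4 at E14.5, the second of them at or below background, then 321 to 473 and later 421 to 763. Only 1 of the 2 E14.5 arrays therefore measured it. The log2 changes from E14.5 to E16.5 and to E18.5 were 2.34 and 2.75 with both arrays, and 1.39 and 1.81 without the dim one.

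Rps4l rose 10.6-fold from E14.5, where it gave 226 and 142, to between 1795 and 2368 at E16.5 (log2 3.41 ± 0.27, adjusted p = 1.81e-06). At E18.5 it gave 3556, 2732 and 1865, overlapping E16.5 (0.35 ± 0.24, adjusted p = 0.36). Rps4x, its X-linked partner, gave 18593 and 18192 at the first stage, between 19252 and 20229 at the second and between 27519 and 29717 at the last (0.54 ± 0.08 for the second interval, adjusted p = 0.00421). Rpl7l1 and Rpl22l1 fell in the first interval (−0.60 ± 0.19 and −0.26 ± 0.10, adjusted p = 0.018 and 0.046). The call of Rpl22l1 was lost without either E14.5 array, any E16.5 array or E18.5 replicate 2 (adjusted p = 0.052 to 0.16), and that of Rpl7l1 without E14.5 replicate 2 or E16.5 replicate 2 (0.13 and 0.059).

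**Figure D5:**
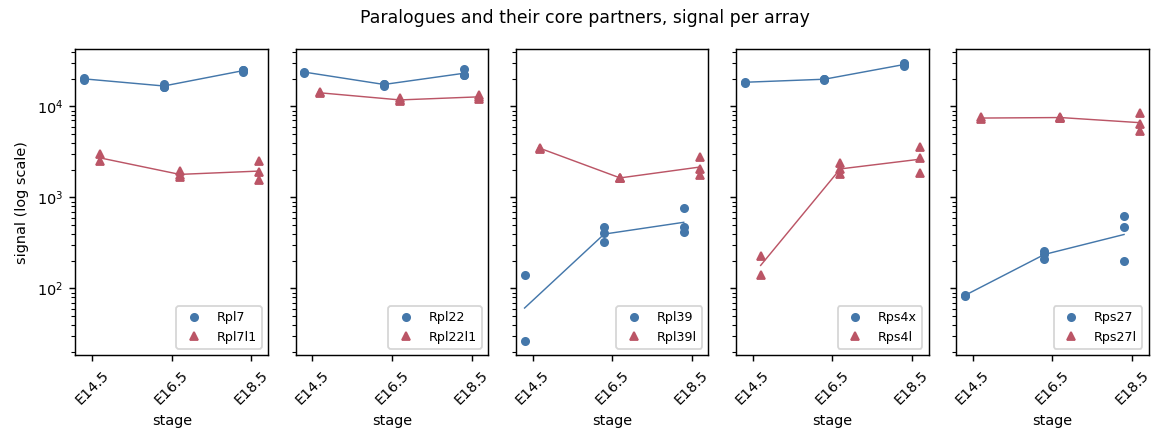
Each panel shows a paralogue (triangles) and its core partner (circles), with the signal of every array on a log axis and lines through the stage means of the log values. Different probesets are not on one scale, so only changes along a line can be read. Rpl7, Rpl22 and Rps4x rise from E16.5 to E18.5 with no overlap, while the E18.5 points of Rps27 and Rps27l spread to both sides of their E16.5 points.

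Genes that work with the ribosome were read from lists beside the members. Fau, which encodes the small subunit protein S30 fused to a ubiquitin-like protein and so falls outside the naming rule, rose from E16.5 to E18.5 (0.46 ± 0.10 SE, adjusted p = 0.018). Of 12 genes listed for translation elongation 6 rose and 0 fell (median 0.28, with 1 lower in limma at an unadjusted p under 0.05). That list is wider than the elongation factors themselves and also holds Eef2k, Eef1akmt1, Eef1e1 and Btf3. Among those that rose were Eef1a1, which brings aminoacyl-tRNA to the ribosome (0.46 ± 0.08, adjusted p = 0.00801 in limma), and its exchange factor subunits Eef1b2 (0.46 ± 0.09) and Eef1d (0.47 ± 0.11). Of 35 initiation factors 4 rose and 3 fell (median −0.08). Eif4h rose by 0.69 ± 0.09 and Eif3f by 0.54 ± 0.09, while Eif3b, the scaffold of the same Eif3 complex, fell by 0.81 ± 0.13 on the log2 scale.

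Genes that make ribosomes were read in the same interval, where 7.52% of all genes rose and 5.62% fell. Of 78 biogenesis factors 5 rose and 2 fell, with a median of 0.01, and of 12 genes of the RNA polymerase I machinery, which transcribes ribosomal RNA, 0 passed in limma in either direction (median 0.15), with 1 higher and 1 lower at an unadjusted p under 0.05. Ddx21, a nucleolar helicase, rose by 0.64 ± 0.13, and Bop1, which processes large subunit RNA, fell by 0.54 ± 0.16. Among 25 growth control genes 1 rose and 5 fell (median −0.35). Mycn, a Myc family activator of ribosome synthesis, rose by 1.55 ± 0.21 (adjusted p = 0.00221), while Max, the partner through which Myc proteins bind DNA, fell by 0.75 ± 0.15 (adjusted p = 0.0103). Pdcd4, an inhibitor of the helicase Eif4a, fell by 0.76 ± 0.11, and Eif4ebp2, a repressor of cap-dependent translation, fell by 0.74 ± 0.11 (adjusted p = 0.00329).

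Mitochondrial ribosomal proteins, built to the same plan but for another compartment, gave 6 higher and 2 lower of 76, with a median of 0.01 against the 0.41 of the cytosolic set. Of 19 cytosolic aminoacyl tRNA synthetases, which charge the tRNAs, 1 rose and 4 fell (median −0.16). Over all genes 13.1% were called in either direction. The difference between any of them and the ribosomal protein genes was not tested, and the lists were not matched to the members for brightness.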

How the data were processed

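The deposited values are signal intensities on a linear scale, 1 per probeset and array. The authors' tools were Affymetrix Expression Console 1.1 and PLIER 2.0, per the submitters' processing notes. The sources used here do not say how background was corrected or whether arrays were normalized to each other. The labels' protocols describe a whole-transcript target preparation, while the array is a 3′ design, so how targets were made is uncertain.

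The scale used was log2(signal + 16), without added scaling. The probeset with the highest mean signal stood for its gene. limma 3.58.1 in R 4.3.3 (lmFit, eBayes with a variance trend) fitted 1 mean per stage to all 8 arrays, with Benjamini-Hochberg adjustment over 18193 genes and, separately, over 34945 probesets. The code of the test was run on simulated data whose added changes were larger than any member rise from E16.5 to E18.5. The simulation held no shift shared across an array, so it does not bear on scaling. Background per array was the 95th percentile of 80 olfactory and vomeronasal receptor probesets, with a signal of 33.6 to 92.2. Signals are quoted per array and changes with their standard error (SE).

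Named genes were the 6 largest rises and falls of each comparison among called genes without overlap, the stalk genes and Rpsa, the paralogues with their partners and 6 genes called in opposite directions in the intervals. From other lists up to 3 called genes per direction qualified. The members and lists were chosen with earlier results of these data known. Promoter sequences are from RefSeq. Windows were not found for Rpl7, Rpl8, Rps14, Rps20, Rps29 and Rps4l.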

Additional observations from a re-analysis of the deposited data

How the results depend on the processing

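Values are as deposited unless a setting is named. For E18.5 over E16.5, the number of members called higher was 29, and it became 5 with quantile normalization, 11 with median centring, 14 with cyclic loess, 15 with centring on the 182 brightest other genes (chosen after the data were seen) and 15 with no variance trend. Of all genes 7.52% were called higher, and 5.66%, 4.00%, 5.75%, 3.96% and 6.31% under those settings in the same order. Leaving out single arrays gave 16 to 30 members. The number called lower was 1, against 2 with quantile normalization, 0 with the mean or the median of probesets, and 1 to 2 without single arrays. The median of 0.41 moved to 0.11, 0.235, 0.23 and 0.19 under the first 4 of those settings in the same order.

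For E16.5 over E14.5, 12 members were called higher, where 37.3% of all genes were. The count became 25 with quantile normalization (27.6% of all genes) and 5 with median centring (20.0%). It became 30 with loess (24.5%) and 25 with the 1815 brightest other genes (45.9%). Members called lower went from 20 to 7, 39, 7 and 7 under the same settings. They went to 13 with no variance trend and to between 11 and 20 without single arrays. The median of 0.08 became 0.33, −0.77, 0.45 and 0.42, and −0.032 with the 182 brightest genes, −0.055 with the mean of probesets and −0.048 with their median. For E18.5 over E14.5, 26 higher and 6 lower became 5 and 33 with median centring (18.3% of all genes higher). With the 182 brightest genes this comparison gave 16 and 16 (33.6% higher). Its median of 0.33 became 0.23 with quantile normalization, −0.69 with median centring, 0.66 with loess, 0.69 with the 1815 genes, 0.0072 with the 182 genes and 0.44 without _s_at and _x_at probesets. The causes were not tested.

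Single genes turned direction as follows. In E18.5 over E16.5, Rpl22l1 gave −0.12 with quantile normalization, −0.0585 with median centring, −0.056 with loess and −0.10 with the 182 genes, and Rpl7l1 gave −0.051 with median centring, −0.093 with the 182 genes and −0.060 to 0.28 without single arrays, the lowest without E18.5 replicate 1. Rpsa gave −0.064 with quantile normalization. In E16.5 over E14.5, loess gave 0.17 for Rpl10a, 0.16 for Rpl13a, 0.15 for Rpl22l1 and 0.16 for Rps24. Rpl22l1 also gave 0.23 with quantile normalization and 0.083 with the 1815 genes. The median of probesets gave 0.20 for Rpl13a, −1.43 for Rpl27, −0.49 for Rpl41 and 0.33 for Rpl7l1, and the mean gave −0.81 for Rpl27 and −0.65 for Rpl41. Without _s_at and _x_at probesets Rpl13a gave 0.70 and Rpl41 −3.59, and in E18.5 over E14.5 Rpl41 gave −1.87. Median centring gave −0.0265 for Rpl27 and −0.83 for Rps27l, which gave −0.095 with the 182 genes and −0.0075 to 0.045 without single arrays, the lowest without E14.5 replicate 2.

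Pseudocounts of 1 and 64, a filter on dim genes, only the arrays of the stages compared and core proteins alone left every count within 1.5 times. No paired analysis was possible because the numbers of replicates only follow accession order and the labels do not pair arrays across stages. Limits are the 2 arrays at E14.5, the unstated normalization, the dependence on scaling, and probesets that may also read pseudogenes.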

Other observations

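One probeset could not be read as a replicate measurement. A second Rps9 probeset, ending in _x_at and singled out after its values were seen, spread widely within stages. Its signals were 14305 and 913 on the E14.5 arrays, 302, 4190 and 2953 on the E16.5 arrays, and 14867, 10624 and 10175 on the E18.5 arrays. Its change from E16.5 to E18.5 was 2.89 ± 1.02 SE on the log2 scale and was not called (adjusted p = 0.099). The Rps9 probeset used for the gene read 17724 and 18572, then 19014 to 19664, and last 20383 to 24070 in the same order of stages.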
